A study of Saccharomyces cerevisiae with 32 samples.

Results

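The isolate CQC is 1 of 8 natural isolates of the budding yeast Saccharomyces cerevisiae whose messenger RNA and ribosome footprints were counted side by side. Its libraries were taken by their labels: 2 mRNA libraries and 2 footprint libraries, 4 of the 32 in the series. They were compared with the mean of the other 7 isolates, AMH, BAN, BED, BPL, BTT, CMP and CPI, each with 2 libraries of each assay. All isolates are labelled wild type and were grown in the medium labelled SC, and no group carries a labelled allele or drug. The labels used here give neither cell density nor growth phase at harvest, and a difference in either cannot be told apart from a difference between isolates. They also do not say whether 2 libraries came from separate cultures, so p-values here cover only how much the sequenced samples vary, which can be technical variation alone.

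Budding yeast given ample glucose ferments it to ethanol by glycolysis even in air and grows fast, with many ribosomes and a short cell cycle. When glucose runs low, cells take up and oxidise ethanol, acetate and other carbon sources, which needs respiration, the glyoxylate cycle and gluconeogenesis, the synthesis of sugar phosphates from smaller molecules. Slow growth is known to go with lower ribosomal protein and cyclin mRNAs and with higher stress and storage genes. A footprint is a piece of mRNA shielded by a ribosome from nuclease digestion, so footprint counts follow both the amount of an mRNA and how densely ribosomes occupy it.

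CQC had 7005423 and 6181057 reads on open reading frames in its mRNA libraries and 249004 and 275549 in its footprint libraries. The other mRNA libraries held 3703931 to 11570247 reads and the other footprint libraries 27621 to 4391002, the 2 BAN footprint libraries being the smallest. Levels are given as scaled CPM, the usual CPM of a read count relative to library size, with the TMM scaling of edgeR within each assay. Across 1362 well-covered genes, whose mean count per library reached 100 in mRNA as well as in footprints, the CQC replicates correlated at r = 0.995 in mRNA and 0.967 in footprints. These correlations are across genes, which share libraries and are not independent.

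The difference between CQC and the rest ran through most of the genome. Of 6269 genes tested in mRNA, 4559 were called (72.7%): 2231 were higher in CQC (35.6%) and 2328 lower (37.1%) by edgeR's quasi-likelihood test at a Benjamini-Hochberg adjusted p under 0.05. Of 5347 genes tested in footprints, 2647 were called (49.5%): 1401 were higher (26.2%) and 1246 lower (23.3%). The ratio of footprints to mRNA, the translational efficiency, was tested as an interaction over 5337 genes, of which 601 were called (11.3%): 473 were higher (8.86%) and 128 lower (2.4%). Among the 5337 genes tested in both assays, 1182 were called higher in both, 1151 lower in both and 49 in opposite directions. In mRNA, 1018 genes had both CQC libraries above all 14 others (16.2%) and 1115 had both below (17.8%), and in footprints these counts were 859 (16.1%) and 580 (10.8%). Counts of gene groups below are to be read beside these shares of all genes tested.

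The other isolates did not stand at equal distance from CQC. BAN and CMP were the nearest: each differed from CQC in 3691 mRNAs, and the correlation across the 1362 genes lay between 0.723 and 0.763 for both. AMH and BED were the farthest, with 4597 and 4693 mRNAs called and correlations between 0.220 and 0.285. In footprints CMP and BAN again had the fewest calls, 1520 and 1304, while the other 5 isolates had 2651 to 2933. BAN also had few footprint reads, and the part of depth in that low count was not tested.

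**Figure D1:**
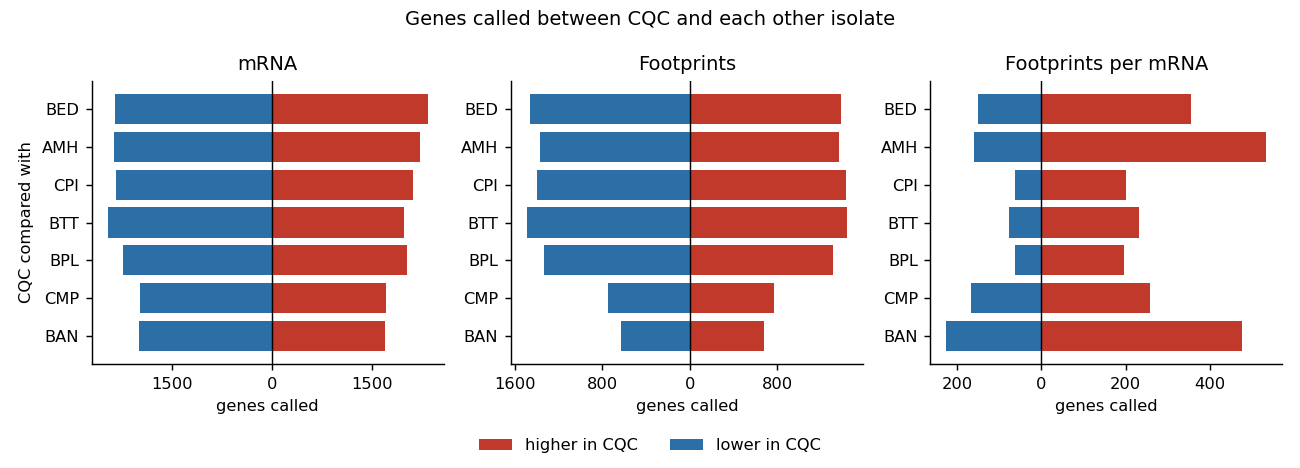
Number of genes called between CQC and each other isolate (edgeR adjusted p under 0.05), to the right where higher in CQC and to the left where lower, for mRNA, footprints and footprints per mRNA. BAN and CMP have the fewest calls in mRNA (3691 each) and in footprints (1304 and 1520), and BED has the most in mRNA (4693).

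Glycolysis had the lowest median mRNA difference of the metabolic lists. The 17 glycolytic genes took 0.304% and 0.341% of mRNA reads in CQC, against 1.61% to 8.76% (median 4.95%) in the other libraries, with BAN the lowest and AMH the highest isolate. In footprints the shares were 1.81% and 1.38% against 6.35% to 21.5% (median 16.6%), so the CQC libraries lay below all others in both assays. Of the 17 genes, 16 fell in mRNA and 15 in footprints and none rose, with median log2 differences of -3.79 and -3.21 beside 0.02 over all genes tested in either assay.

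The later steps, from triose phosphates to pyruvate, included the largest differences of the pathway. ENO2 (YHR174W, chromosome VIII, 451327-452640 in RefSeq R64), one of 2 enolases, had mRNA levels, in scaled CPM, of 6.94 and 12.6 in CQC and from 685 to 11527 (median 3685) in the others. Its footprints were 1179 and 633 in CQC and from 5317 to 36159.6 (median 20249.5) in the others. The log2 differences were -8.34 ± 0.27 in mRNA (edgeR adjusted p = 2.9e-12) and -4.21 ± 0.25 in footprints (edgeR adjusted p = 7.3e-14). ENO1 (YGR254W, chromosome VII, 1000927-1002240), the other enolase, had mRNA levels of 61.3 and 89.9 in CQC and from 2887 to 10192 (median 5832) in the others. It fell, with a log2 difference of -6.23 ± 0.24 in mRNA (edgeR adjusted p = 2.1e-11) and by -4.12 ± 0.25 in footprints (edgeR adjusted p = 1.2e-13). In neither assay did a CQC library of either enolase reach the lowest of the other 14.

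The mRNA of GPM1, phosphoglycerate mutase, was at 51.0 and 53.8 in CQC and from 835 to 10503 (median 4085) in the others. PGK1, phosphoglycerate kinase, was at 65.4 and 87.2 in CQC and from 620.4 to 11123 (median 5306) in the others. CDC19, the main pyruvate kinase, was at 43.0 and 51.6 in CQC and from 417 to 4310.3 (median 2742) in the others. All 3 had both CQC libraries below every other, with BAN the lowest of the other isolates, and their log2 differences were -6.13 ± 0.19, -5.59 ± 0.19 and -5.39 ± 0.19 (edgeR adjusted p = 2.1e-12, 5.7e-12 and 5.8e-12). The upper steps fell less: PFK1 and PFK2, the subunits of phosphofructokinase, differed by -1.79 ± 0.13 and -2.52 ± 0.12, and PGI1, the isomerase before them, by -2.39 ± 0.14. The 3 sugar kinases at the entry differed among themselves. HXK2, the hexokinase of glucose-grown cells, fell, with a log2 difference of -3.31 ± 0.14 in mRNA and HXK1 by -2.30 ± 0.29, while GLK1, glucokinase, was at 1043 and 1229 in CQC and from 518 to 1933 (median 1199) in the others and was not called (log2 difference 0.06 ± 0.18, edgeR adjusted p = 0.80). PYK2, the minor pyruvate kinase, fell, with a log2 difference of -1.0 ± 0.13 in mRNA.

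For most glycolytic genes the footprint difference was smaller than the mRNA difference. The ratio rose for 10 of the 17 genes and fell for none, with a median of 0.78 beside 0.19 over all genes tested, for example by 0.77 ± 0.18 for FBA1, aldolase (edgeR adjusted p = 0.0062), and by 4.14 ± 0.28 for ENO2 (edgeR adjusted p = 1.4e-10). Without the first CQC replicate FBA1 was not called (0.46) and the ENO2 value was 3.25, and without the second that of ENO2 was 4.98. Several of these genes have near-identical copies between which short reads could be split, so their single values are uncertain. Counts were therefore also summed over copies, a step chosen after the data were seen. Summed, ENO1 and ENO2 fell, with a log2 difference of -6.74 ± 0.25 in mRNA and -4.17 ± 0.25 in footprints, and the ratio rose by 2.59 ± 0.26 (edgeR adjusted p = 2.2e-07). TDH1, TDH2 and TDH3, the 3 glyceraldehyde-phosphate dehydrogenases, summed to -4.51 ± 0.22 and -3.30 ± 0.23 with a ratio of 1.23 ± 0.24, where TDH2 alone had a ratio of 3.52 ± 0.24. GPM1, PGK1 and CDC19, which are in none of the sets of copies summed, had ratios of 1.96 ± 0.22, 1.75 ± 0.21 and 1.74 ± 0.22, each called higher (edgeR adjusted p = 9.5e-07, 2.2e-06 and 4.8e-06).

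The main enzymes of the steps from pyruvate to ethanol fell too. PDC1, the main pyruvate decarboxylase, was at 15.4 and 15.0 in CQC and from 233 to 1915 (median 1239) in the other mRNA libraries and fell, with a log2 difference of -6.05 ± 0.19 (edgeR adjusted p = 2.9e-12). PDC1 and PDC5 summed fell, with a log2 difference of -5.87 ± 0.18 in mRNA and -3.91 ± 0.22 in footprints. ADH1, the alcohol dehydrogenase that makes ethanol, fell, with a log2 difference of -2.99 ± 0.15 and -2.92 ± 0.21. ADH2, the glucose-repressed enzyme that oxidises ethanol, was also lower (-3.08 ± 0.18 in mRNA), but it resembles ADH1 closely and reads of either could be counted on the other. PDC6, the minor decarboxylase isozyme, went the other way, at 115 and 99.9 in CQC and from 0.586 to 56.8 (median 10.7) in the other mRNA libraries, a log2 difference of 3.73 ± 0.21. Over the 19 genes of fermentation to ethanol, acetate and glycerol, 5 rose and 9 fell in mRNA, beside 35.6% and 37.1% of all genes.

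**Figure D2:**
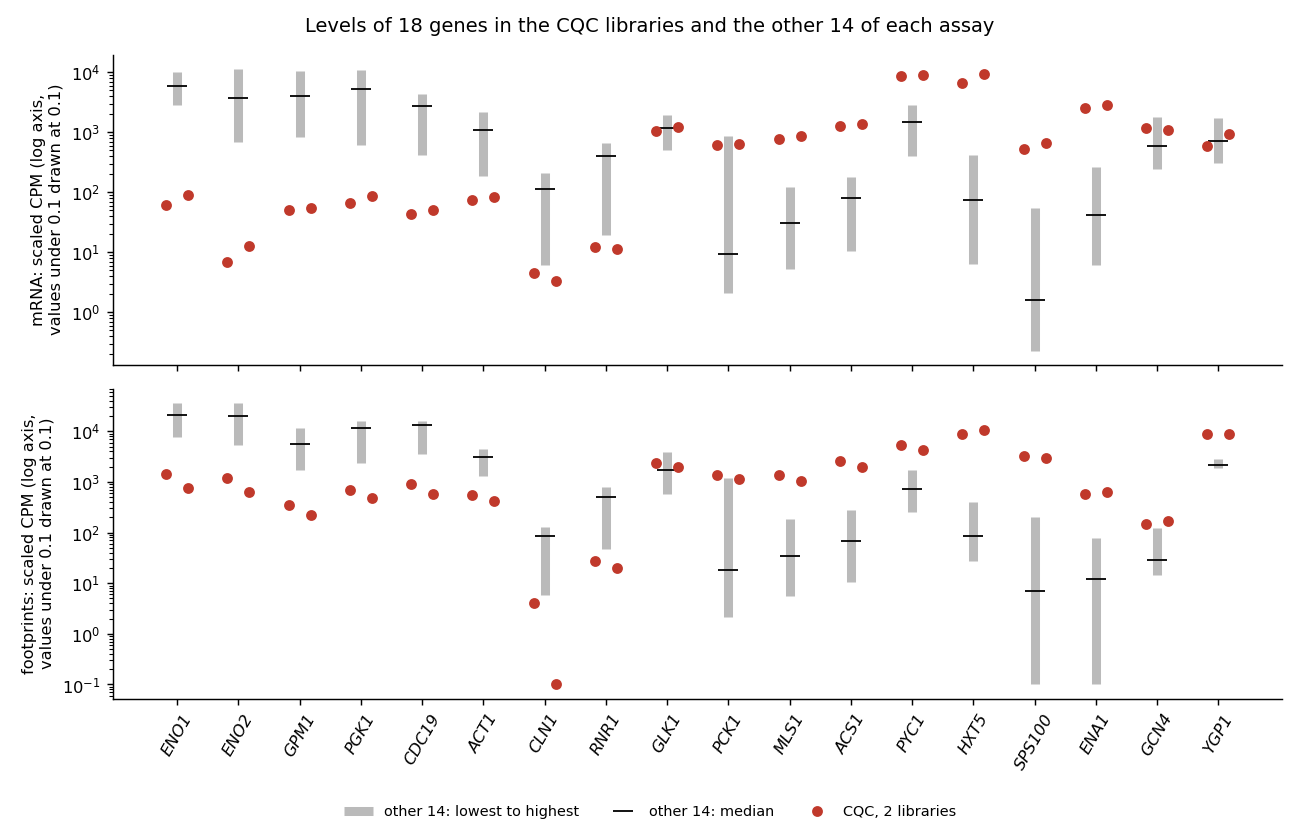
Levels of 18 genes in scaled CPM on a log axis, mRNA above and footprints below. Red points are the 2 CQC libraries, grey bars run from the lowest to the highest of the other 14 libraries and the black tick is their median; the glycolytic genes ENO1 to CDC19 lie below the grey bars in both assays and HXT5, SPS100 and ENA1 above them, while GLK1 lies within.

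Gluconeogenesis and the glyoxylate cycle rose. Of the 15 genes on the list, 14 rose and 1 fell in mRNA (median 2.73), and all 15 rose in footprints (median 2.77). They took 1.88% and 1.90% of mRNA reads in CQC against 0.304% to 0.958% in the others, and 1.92% and 1.69% of footprint reads against 0.171% to 0.747%. MLS1, malate synthase of the glyoxylate cycle, was at 789 and 876 in CQC and from 5.29 to 125 (median 30.6) in the other mRNA libraries. ACS1, the acetyl-CoA synthetase of cells on poor carbon sources, was at 1264 and 1388 in CQC and from 10.4 to 181 (median 79.0) in the others. Both CQC libraries of each lay above all others, with log2 differences of 5.0 ± 0.11 and 4.47 ± 0.17 in mRNA (edgeR adjusted p = 1.1e-13 and 1.2e-11) and 5.03 ± 0.20 and 5.13 ± 0.19 in footprints.

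FBP1, fructose-1,6-bisphosphatase, which reverses phosphofructokinase, rose by 4.43 ± 0.14 in mRNA and 5.72 ± 0.19 in footprints, and its ratio rose by 1.34 ± 0.32 (edgeR adjusted p = 0.0073). That ratio was not called without the first CQC replicate (1.23), and without the second AMH replicate it was 2.41 and the footprint difference 6.37. PCK1, phosphoenolpyruvate carboxykinase, was at 624 and 641 in CQC and from 2.09 to 871 (median 9.39) in the other mRNA libraries. It was called (4.13 ± 0.12, edgeR adjusted p = 2.1e-12) although CMP, the highest of the other isolates, overlapped CQC. ICL1, isocitrate lyase, rose less, by 1.75 ± 0.14 in mRNA and 2.61 ± 0.32 in footprints. JEN1, the lactate and pyruvate permease, rose by 3.51 ± 0.12 and 2.77 ± 0.17, and ADY2, an acetate and ammonium transporter, by 6.49 ± 0.18 and 7.53 ± 0.42, the first value being 7.19 without the second BED replicate.

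Pyruvate carboxylase, which makes oxaloacetate from pyruvate, has 2 genes that behaved differently. PYC1 mRNA was at 8569 and 9163 in CQC and from 407 to 2884 (median 1482) in the others, above all others, a difference of 2.73 ± 0.12. PYC2, the 1 member that fell in mRNA, was at 189 and 193 in CQC and from 122 to 503 (median 245) in the others (-0.43 ± 0.14, edgeR adjusted p = 0.013), while its footprints were 1243 and 1107 in CQC and from 137 to 665 (median 284) in the others (1.90 ± 0.14, edgeR adjusted p = 1.4e-11). The mRNA call was lost without either CQC replicate (-0.43 and -0.46) or the first BTT replicate (-0.40). The copies are similar, and a part of PYC1 footprints counted on PYC2 was not tested. Summed, they rose by 2.46 ± 0.12 in mRNA and 2.46 ± 0.13 in footprints.

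Hexose transporters were mostly higher. Of 20 genes, 14 rose and 3 fell in mRNA (median 1.26), beside 35.6% and 37.1% of all genes tested. This rise was not particular to CQC: BAN and CMP, each against the rest, had higher mRNA medians, 2.65 and 1.55. Their footprint medians were also higher, 1.07 and 1.38 beside 0.76 in CQC. The group took 2.78% and 3.38% of mRNA reads in CQC, against a mean of 5.27% in BAN, the highest isolate. HXT5 (chromosome VIII), a transporter made by slowly growing or starved cells, was at 6614 and 9552 in CQC and from 6.28 to 412 (median 75.6) in the other mRNA libraries and 8797 and 10449.5 in CQC and from 27.3 to 394 (median 86.4) in the other footprint libraries. The highest other isolate, CPI, stayed far below CQC in both assays, and the log2 differences were 7.0 ± 0.13 and 6.59 ± 0.15 (edgeR adjusted p = 2.2e-14 and 5.2e-22). SNF3, the sensor of low glucose, rose by 2.80 ± 0.11 in mRNA, and HXT4 fell, with a log2 difference of -2.31 ± 0.15. HXT3 did not pass the test in either assay (log2 difference -0.18 ± 0.15 in mRNA). HXT6 and HXT7, high-affinity transporters with nearly the same sequence, rose by 1.26 ± 0.20 summed, inside the range of the other libraries.

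Nuclear genes of respiration mostly rose. Of 40 nuclear genes for the respiratory complexes or ATP synthase, 27 rose and 4 fell in mRNA (median 1.12), and 37 rose and none fell in footprints (median 1.87). Only 1 of the 40 had both CQC mRNA libraries above all others, but 26 did in footprints, beside 16.1% of all genes tested. BAN and CMP had the higher mRNA shares: the group took 1.90% and 2.16% of mRNA reads in CQC and up to 3.42% in CMP, while its footprint share of 3.45% and 3.64% in CQC exceeded the highest other library, at 3.01%. QCR8, a subunit of the cytochrome bc1 complex, was at 1402 and 1567 in CQC and from 152 to 3238 (median 247) in the other mRNA libraries and 1857 and 2045 in CQC and from 166 to 801 (median 263) in the other footprint libraries. The ratio rose for 25 of the 40 genes and fell for none (median 0.75), and among them were COX13 at 1.18 ± 0.21 and QCR6 at 1.34 ± 0.22, neither of them called without the first CQC replicate (0.98 and 1.10). That count was 3 without the first CQC replicate, 15 without the second and 11 after a trend with gene length was removed.

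In the citric acid cycle 10 of 18 genes rose and 6 fell in mRNA, and 12 rose and 4 fell in footprints. Of all genes tested, 35.6% rose and 37.1% fell in mRNA, and 26.2% rose and 23.3% fell in footprints. ACO1, aconitase, was at 3035 and 3559.7 in CQC and from 289 to 1319 (median 798) in the other mRNA libraries (2.25 ± 0.10, edgeR adjusted p = 5.2e-11), and CIT1, citrate synthase, rose by 1.99 ± 0.13. LSC1, a subunit of succinyl-CoA ligase, fell, with a log2 difference of -1.70 ± 0.13. NDE2, an external NADH dehydrogenase of mitochondria, rose by 2.77 ± 0.13 in mRNA and 2.62 ± 0.23 in footprints. Of the 34 proteins of the large mitochondrial ribosomal subunit, 12 rose in mRNA, near the 35.6% of all genes, and 7 fell. In footprints 20 rose and none fell, beside 26.2% and 23.3% of all genes.

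Transcripts of the mitochondrial genome took 21.1% and 19.0% of CQC mRNA reads, against 1.16% to 11.9% (median 7.55%) in the others. Of 18 mitochondrial genes on the list, 16 rose and 1 fell (median 2.49). COX1, a catalytic subunit of cytochrome oxidase, was at 35818 and 35722 in CQC and from 828 to 23404 (median 6956) in the others and COB, apocytochrome b, at 25573 and 24879 in CQC and from 907 to 21384 (median 5904) in the others, both above all others, with log2 differences of 2.81 ± 0.14 and 2.41 ± 0.10 (edgeR adjusted p = 2.7e-10 and 2.4e-11). Footprints on these genes made up 0.00562% and 0.0174% of CQC footprint reads and at most 0.0253% elsewhere, so no footprint or ratio value of them is given.

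Peroxisomal fatty acid oxidation rose as a group, 13 of 17 genes in mRNA (2 fell, median 2.13) and 11 of 15 tested in footprints (1 fell, median 1.81). Over all genes tested, 35.6% rose and 37.1% fell in mRNA, and 26.2% and 23.3% in footprints. POT1, the thiolase of the pathway, was at 177 and 186 in CQC and from 2.30 to 49.5 (median 6.65) in the other mRNA libraries, and FOX2, its multifunctional enzyme, at 224 and 266 in CQC and from 8.58 to 104 (median 18.2) in the others. Both were above all other libraries, by 4.26 ± 0.17 and 3.38 ± 0.11 (edgeR adjusted p = 2.6e-11 and 3.5e-12). CTA1, peroxisomal catalase, rose by 3.81 ± 0.13. ANT1, the peroxisomal ATP carrier, moved against the group and fell, with a log2 difference of -4.17 ± 0.22, from a median of 40.3 to 1.54 and 2.96 scaled CPM.

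General stress genes mostly rose as well. Of 32 genes of the general stress response, 19 rose and 8 fell in mRNA (median 0.88), beside 35.6% and 37.1% of all genes tested. In footprints 23 rose and 2 fell (median 1.76), beside 26.2% and 23.3%. The mRNA median was not particular to CQC: BAN, set against its other 7 isolates, had 0.82. The group took 2.26% and 2.41% of mRNA reads in CQC, inside the 0.607% to 2.63% of the others. Its footprint share was 6.50% and 6.30% in CQC against 0.952% to 2.74% in the others. GRE1, a hydrophilin of drying cells, was at 1808 and 2267 in CQC and from 0.785 to 147 (median 86.8) in the other mRNA libraries and 7354 and 5695 in CQC and from 2.33 to 358 (median 121) in the other footprint libraries. HSP12, a small membrane-protecting protein, was at 6269 and 7099 in CQC and from 14.7 to 2925 (median 476) in the other mRNA libraries, and CTT1, cytosolic catalase, at 1323 and 1519 in CQC and from 52.9 to 1326 (median 117) in the others. GRE1 and HSP12 lay above all other libraries in both assays, with mRNA differences of 6.07 ± 0.13 and 4.51 ± 0.14 (edgeR adjusted p = 1.2e-13 and 2.7e-12), while CTT1 in CPI reached the level of CQC (3.29 ± 0.17, edgeR adjusted p = 4.1e-10). YGP1, a secreted glycoprotein of starved cells, was not called in mRNA, at 598 and 922 in CQC and from 308 to 1751 (median 726) in the others (0.03 ± 0.18, edgeR adjusted p = 0.92), while its footprints were 8969.9 and 8726 in CQC and from 1912 to 2829.9 (median 2177) in the others, above every other library, and the ratio rose by 1.96 ± 0.23 (edgeR adjusted p = 2.4e-06).

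Of 27 heat shock chaperones, 6 rose and 16 fell in mRNA (median -0.63), beside 35.6% and 37.1% of all genes tested. In footprints 8 rose and 7 fell (median 0.07), beside 26.2% and 23.3%. The ratio rose for 9 and fell for none (median 0.58), beside 8.86% and 2.4%. This median was not particular to CQC: each against its other 7 isolates, BTT and CPI had 0.54 and 0.52. BAN had the lowest, at -1.97, and is part of the mean that CQC was set against. SSA3, the stress-induced Hsp70, was at 2442 and 2918 in CQC and from 18.9 to 326 (median 54.4) in the other mRNA libraries (5.28 ± 0.13, edgeR adjusted p = 2.2e-13), and HSP26, a small heat shock protein, rose by 1.44 ± 0.16 in mRNA and 2.38 ± 0.15 in footprints. SSB1 and SSB2, ribosome-bound Hsp70 proteins, fell, with a log2 difference of -1.67 ± 0.11 and -2.23 ± 0.12, although reads could be split between them, and SSE1, an Hsp70 exchange factor, fell, with a log2 difference of -2.26 ± 0.14. HSP30, a plasma membrane protein, rose by 3.88 ± 0.23, but BAN, the highest other isolate, reached 36672, above CQC at 9578 and 13729.6.

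Storage carbohydrates gave a mixed list, with 11 of 21 genes up and 8 down in mRNA, beside 35.6% and 37.1% of all genes tested. The mRNA median of 0.57 was not particular to CQC: CPI and BTT, each against the rest, had 0.89 and 0.57. In footprints these 2 isolates had 1.15 and 0.90, beside 0.40 in CQC. The group took 1.47% and 1.51% of mRNA reads in CQC, against a mean of 2.18% in CPI, the highest isolate. GLC3, the glycogen branching enzyme, was at 2927 and 3393 in CQC and from 183 to 1584 (median 681) in the others, and GLG2, a glycogenin that primes glycogen, rose by 2.95 ± 0.11 in mRNA (edgeR adjusted p = 1.3e-11). ATH1 and NTH2, 2 trehalases, rose by 2.47 ± 0.15 and 2.36 ± 0.09. PGM1, the minor phosphoglucomutase, fell, with a log2 difference of -3.94 ± 0.23, to 3.08 and 2.59 scaled CPM.

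**Figure D3:**
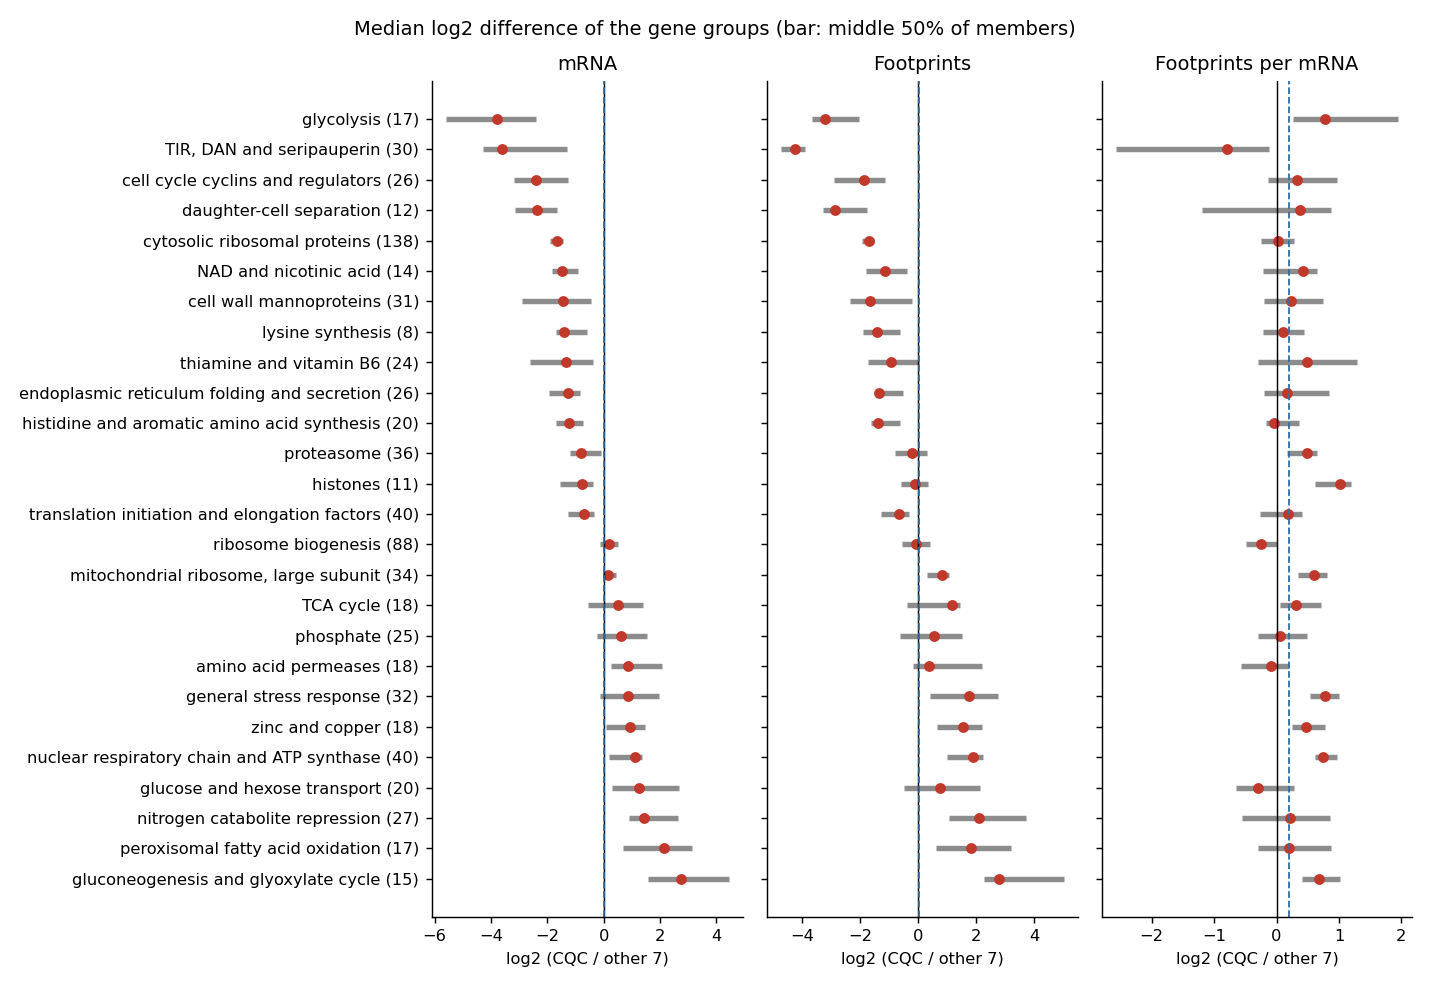
Median log2 difference between CQC and the other 7 isolates for 26 gene groups (red point, group size in parentheses) with the middle 50% of members (grey bar), for mRNA, footprints and their ratio; the dashed line is the median of all genes. Glycolysis (-3.79 in mRNA) and gluconeogenesis (2.73) lie at opposite ends, and the ratio of the respiratory chain (0.75) and of glycolysis (0.78) lies above the dashed line at 0.19. BAN, which is part of the compared mean, had a respiratory chain ratio median of -1.40 against its other 7 isolates.

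Ribosomal proteins fell almost without exception. Of 138 genes, 136 fell and none rose in mRNA, and 136 fell and none rose in footprints, with medians of -1.67 and -1.69. In 129 of them both CQC mRNA libraries were below all 14 others (17.8% of all genes tested), and in 125 both footprint libraries were (10.8%). They took 2.26% and 2.17% of mRNA reads in CQC and 4.51% to 16.7% in the others, and 3.61% and 3.26% of footprint reads against 7.22% to 15.96%. RPS15, of the small subunit, was at 8.63 and 11.1 in CQC and from 23.2 to 419.7 (median 44.2) in the other mRNA libraries, and RPL13B, of the large subunit, at 62.9 and 73.1 in CQC and from 260.0 to 1493 (median 315) in the others, log2 differences of -2.71 ± 0.24 and -2.64 ± 0.14 (edgeR adjusted p = 1.1e-07 and 3.7e-10). The ratio was called in only 9 of 138, 5 higher and 4 lower (median 0.02). Most ribosomal proteins are made from 2 similar genes, so a single copy's value is uncertain.

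The translation factors went the same way, with 31 of 40 lower and 2 higher in mRNA (median -0.68) and 24 lower and 3 higher in footprints. For all genes tested these shares were 37.1% and 35.6% in mRNA and 23.3% and 26.2% in footprints. EFT1 and EFT2, identical copies of elongation factor 2, fell, with a log2 difference of -2.28 ± 0.12 and -2.01 ± 0.12. Reads could be split between these copies, which were not summed, so their single values are uncertain. TEF2, elongation factor 1A, fell, with a log2 difference of -1.09 ± 0.13. HEF3, a second form of elongation factor 3 that is little made in fast growth, was at 1224 and 1349.9 in CQC and from 10.6 to 195 (median 71.9) in the other mRNA libraries, a rise of 4.71 ± 0.12 (edgeR adjusted p = 6.0e-13). Ribosome biogenesis genes were called in both directions. Of 88, 32 rose in mRNA, near the 35.6% of all genes tested, and 16 fell, beside 37.1% (median 0.21). In footprints 12 rose and 16 fell, beside 26.2% and 23.3% of all genes tested (median -0.09). RRN3, a factor that recruits RNA polymerase I, rose by 1.32 ± 0.08 in mRNA and 1.32 ± 0.23 in footprints, and NOP1, the nucleolar methylase fibrillarin, fell, with a log2 difference of -0.80 ± 0.14 in mRNA.

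**Figure D4:**
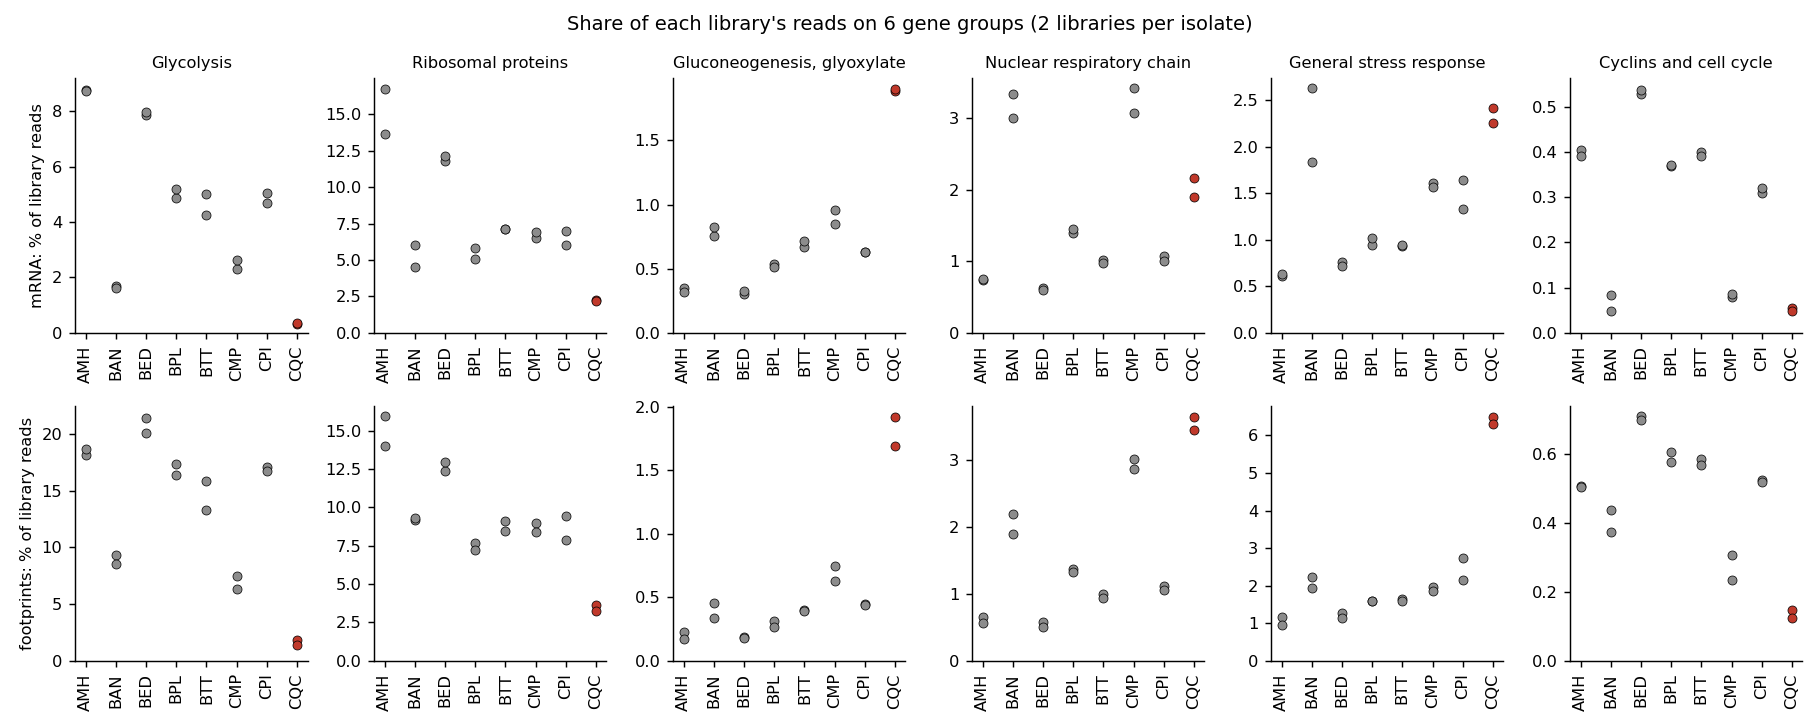
Percent of each library's reads on 6 gene groups, mRNA above and footprints below; each point is 1 library, 2 per isolate, CQC in red. CQC has the lowest share for glycolysis and ribosomal proteins and the highest for gluconeogenesis in both assays, while BAN and CMP exceed it for respiratory chain mRNA.

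Genes of the dividing cell were scarce. Of 26 cyclins and cell cycle regulators, 24 fell and 1 rose in mRNA (median -2.40), beside 37.1% and 35.6% of all genes tested. In footprints 17 of 25 fell and 1 rose (median -1.85), beside 23.3% and 26.2%. The group took 0.054% and 0.049% of mRNA reads in CQC, beside 0.048% to 0.538% in the others, with BAN the lowest of the other isolates. CLN1, a cyclin that starts the cycle in G1, was at 4.47 and 3.33 in CQC and from 6.22 to 209 (median 113) in the other mRNA libraries (-4.20 ± 0.27, edgeR adjusted p = 3.4e-09), with 1 and 0 footprint reads. RNR1, the large subunit of ribonucleotide reductase, was at 12.3 and 11.5 in CQC and from 19.4 to 669 (median 402) in the others (-4.21 ± 0.18, edgeR adjusted p = 4.3e-11), and CLB2, a mitotic cyclin, fell, with a log2 difference of -3.47 ± 0.22. SIC1, an inhibitor of the S phase cyclin kinase, was the member that rose, by 0.32 ± 0.10 in mRNA (edgeR adjusted p = 0.0086), a call lost without the second CQC replicate (0.26). When mRNA reads were thinned to the depth of the footprint libraries, 15 were called lower. Fewer cells at a stage of the cycle and less RNA per cell cannot be told apart in these bulk libraries.

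Daughter cell separation genes, which the daughter alone switches on after division, fell in 11 of 12 cases in mRNA (median -2.36) and 10 of 12 in footprints. DSE4, a glucanase that cuts the septum, was at 7.55 and 5.0 in CQC and from 18.6 to 393 (median 267) in the other mRNA libraries, below all others (-4.71 ± 0.28, edgeR adjusted p = 1.2e-09), and CTS1, the chitinase of the septum, fell, with a log2 difference of -2.10 ± 0.17. Of 11 histone genes, 8 fell and 1 rose in mRNA, beside 37.1% and 35.6% of all genes tested. In footprints 4 fell and 3 rose, beside 23.3% and 26.2%, and the ratio rose in 4, beside 8.86%. HTA2, a histone H2A, was at 17.4 and 20.7 in CQC and from 51.4 to 504 (median 265) in the other mRNA libraries (-3.58 ± 0.25), and HHT1, a histone H3, rose by 0.57 ± 0.16, which was not called without the second CQC replicate (0.49). ACT1, actin, often taken as a reference gene, was at 73.2 and 82.5 in CQC and from 186 to 2174 (median 1077) in the other mRNA libraries and fell, with a log2 difference of -3.48 ± 0.15 (edgeR adjusted p = 3.9e-11), and by -2.49 ± 0.19 in footprints.

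The proteasome fell in mRNA, with 25 of 36 genes lower and 3 higher (median -0.80), beside 37.1% and 35.6% of all genes tested. In footprints 13 were lower and 8 higher (median -0.22), beside 23.3% and 26.2%. The ratio rose in 9, beside 8.86%. RPN4, the transcription factor of proteasome genes, was itself at 1013 and 927 in CQC and from 95.7 to 592 (median 238) in the other mRNA libraries and rose by 2.18 ± 0.12 (edgeR adjusted p = 5.6e-10), and by 2.52 ± 0.15 in footprints. In the endoplasmic reticulum, 21 of 26 protein folding and transport genes fell in mRNA and 2 rose, beside 37.1% and 35.6% of all genes. SEC61, the channel through which proteins enter the reticulum, was at 11.7 and 11.7 in CQC and from 15.5 to 82.9 (median 55.5) in the others (-2.03 ± 0.15, edgeR adjusted p = 1.3e-08).

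Nitrogen catabolite repression genes, which cells switch on when good nitrogen sources run out, mostly rose. Among 26 tested in mRNA, 23 rose and 1 fell (median 1.42), beside 35.6% and 37.1% of all genes tested. In footprints 15 of 19 rose and none fell (median 2.09), beside 26.2% and 23.3%. PUT1, proline oxidase, was at 1527 and 1627 in CQC and from 4.49 to 1221 (median 39.2) in the other mRNA libraries and PUT4, proline permease, at 228 and 267 in CQC and from 0.976 to 37.2 (median 6.44) in the others. Both were above all other libraries, with differences of 4.61 ± 0.15 and 4.65 ± 0.15 (edgeR adjusted p = 2.6e-12 and 4.1e-12). GAP1, the general amino acid permease, was at 187 and 207 in CQC and from 3.99 to 21.4 (median 12.2) in the other mRNA libraries (4.10 ± 0.15). PTR2, the peptide transporter, rose by 3.14 ± 0.11 and 3.86 ± 0.13. Of 18 amino acid permeases, 13 rose and 2 fell in mRNA, beside 35.6% and 37.1% of all genes tested. Among the permeases that rose were TAT1, BAP2 and AGP1, by 3.43 ± 0.12, 2.84 ± 0.13 and 2.79 ± 0.13.

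Amino acid synthesis fell in mRNA in the lysine, histidine and aromatic, branched-chain and sulfur pathways, while arginine synthesis was mixed. Of 8 lysine genes 7 fell in mRNA and in footprints, and LYS14, the activator of the others, was not called in mRNA (0.09 ± 0.11, edgeR adjusted p = 0.50). LYS9 was at 22.2 and 20.5 in CQC and from 59.8 to 1306 (median 185) in the other mRNA libraries (-3.32 ± 0.16, edgeR adjusted p = 2.2e-10), BTT being the highest isolate. Of 20 histidine and aromatic genes 17 fell and 1 rose, and of 12 branched-chain genes 9 fell and 1 rose. Of 30 sulfur and methionine genes 19 fell and 5 rose. Over all genes tested in mRNA, 37.1% fell and 35.6% rose. LEU2, of leucine synthesis, was at 18.3 and 17.8 in CQC and from 99.3 to 755 (median 192) in the others (-3.45 ± 0.14, edgeR adjusted p = 3.0e-11). The 1 branched-chain gene that rose was BAT2, the cytosolic transaminase that also degrades these amino acids, at 551 and 592 in CQC and from 54.5 to 209 (median 124) in the others (2.29 ± 0.15), and the mitochondrial BAT1 fell, with a log2 difference of -2.18 ± 0.13. ARO9 and ARO10, which degrade aromatic amino acids to fusel alcohols, rose by 3.94 ± 0.10 and 2.52 ± 0.14. In arginine synthesis 3 of 10 rose and 4 fell in mRNA, near the shares of all genes (median 0.11). CPA1, whose translation a leader peptide represses, rose in mRNA by 1.59 ± 0.13 and was not called in footprints (0.31 ± 0.19, edgeR adjusted p = 0.18). Its ratio fell, with a log2 difference of -1.25 ± 0.26 (edgeR adjusted p = 0.002). Without the second CQC replicate its footprints were called higher (0.69) and the ratio was not called (-0.95).

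GCN4, the activator of amino acid synthesis, is controlled through upstream open reading frames that let it be translated when amino acids are short. Its mRNA was at 1168 and 1074 in CQC and from 244 to 1832 (median 587) in the others and its footprints were 148 and 166 in CQC and from 14.8 to 124 (median 29.4) in the others. The footprints of both CQC libraries were above all others, the mRNA within their range, and the log2 differences were 0.80 ± 0.14 in mRNA, 2.06 ± 0.26 in footprints and 1.28 ± 0.31 in the ratio (edgeR adjusted p = 0.0073). The ratio was not called without either CQC replicate (1.43 and 1.12). Among 16 mRNAs with regulatory upstream frames the ratio rose in 1, GCN4, and fell in 1, CPA1. HAP4, the activator of respiratory genes, rose by 2.46 ± 0.17 in mRNA and 3.03 ± 0.14 in footprints.

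Vitamin and cofactor genes were lower. Of 24 thiamine and vitamin B6 genes 18 fell and 5 rose in mRNA, and of 14 NAD and nicotinic acid genes 13 fell and 1 rose. SNZ2 and SNZ3, nearly identical vitamin B6 synthases, summed to differences of -5.16 ± 0.16 in mRNA and -5.52 ± 0.40 in footprints. SNZ1, the family member made in stationary cultures, was at 647 and 746 in CQC and from 29.7 to 1107 (median 180.3) in the other mRNA libraries and rose by 2.16 ± 0.18 (edgeR adjusted p = 7.0e-08). BNA1, of NAD synthesis, was at 15.3 and 14.4 in CQC and from 46.4 to 205 (median 122) in the others (-2.91 ± 0.33, edgeR adjusted p = 1.7e-06).

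The sodium pumps of the ENA cluster were among the mRNAs with the highest differences. ENA1 (YDR040C, chromosome IV, 535192-538467), ENA2 and ENA5 lie next to each other and are nearly identical, so their reads cannot be assigned with certainty. ENA1 mRNA was at 2529 and 2860.4 in CQC and from 6.24 to 260.1 (median 41.9) in the others and its footprints were 581 and 643 in CQC and from 0 to 79.3 (median 12.3) in the others. All CQC libraries lay above all others, and the 3 genes summed differed by 5.97 ± 0.14 in mRNA (edgeR adjusted p = 2.1e-13) and 5.38 ± 0.17 in footprints. KRS1 and RSM10, the nearest named genes on either side, were not called in mRNA (-0.01 ± 0.10 and 0.33 ± 0.18), though RSM10 was without either BAN replicate (0.26 and 0.42). On either side of ENO2, SPC97 fell, with a log2 difference of -2.63 ± 0.37 (-3.23 without the first CQC replicate) and CTR2 was not called (0.08 ± 0.10), and beside ENO1, PUP2 fell, with a log2 difference of -1.14 ± 0.13 and COQ6 by -1.13 ± 0.10 (edgeR adjusted p = 1.1e-07).

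The plasma membrane proton pump, which drives uptake, has 2 similar genes. PMA1, the main one, was at 1083 and 1327 in CQC and from 2699.8 to 8284 (median 4909) in the other mRNA libraries and fell, with a log2 difference of -1.97 ± 0.16 (edgeR adjusted p = 3.4e-08). PMA2 was at 504 and 616 in CQC and from 4.94 to 126 (median 14.2) in the others and rose by 4.53 ± 0.19, whereas its footprints were 646 and 799 in CQC and from 379 to 589.8 (median 493) in the others. Summed, the difference was -1.44 ± 0.15 in mRNA and -1.45 ± 0.16 in footprints with a ratio of 0.01 ± 0.17, whereas PMA2 alone had a ratio of -3.91. PMA2 made up 31.8% and 31.7% of the summed mRNA reads in CQC, against 0.0835% to 3.98% in the others, and 32.3% and 33.9% of the summed footprints, against 5.92% to 13.8%.

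Phosphate genes rose in 15 of 25 cases and fell in 4 in mRNA, beside 35.6% and 37.1% of all genes tested. PHO89, a sodium and phosphate cotransporter, was at 139 and 137 in CQC and from 0.173 to 15.8 (median 1.25) in the other mRNA libraries and GIT1, a glycerophosphoinositol permease, at 945 and 1032 in CQC and from 8.16 to 50.6 (median 30.8) in the others. Both were above all others, with differences of 6.38 ± 0.20 and 5.35 ± 0.13 (edgeR adjusted p = 2.3e-12 and 2.2e-13). The secreted acid phosphatase PHO5 fell, with a log2 difference of -3.57 ± 0.19 in mRNA. PHO11 and PHO12, its subtelomeric relatives, summed to a rise of 1.77 ± 0.11 in mRNA and a difference of -2.14 ± 0.40 in footprints, a ratio of -3.90 ± 0.39 (edgeR adjusted p = 2.2e-07). PHO11 had 3 and 2 footprint reads in CQC and PHO12 3 and 1. Zinc and copper genes rose in 11 of 16 tested in mRNA and fell in 2, beside 35.6% and 37.1% of all genes tested. Their mRNA median of 0.94 was not particular to CQC: CMP and BAN, each against the rest, had 1.16 and 0.94. In footprints the CQC median was the highest, 1.53 beside 1.15 in CMP. The group took 0.596% and 0.627% of mRNA reads in CQC, against a mean of 1.41% in CMP. CRS5, a copper-binding metallothionein, was at 1122 and 1181 in CQC and from 8.23 to 247 (median 83.3) in the other mRNA libraries. Its log2 difference was 4.07 ± 0.17 (edgeR adjusted p = 4.3e-11).

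Cell wall proteins fell in 25 of 31 cases in mRNA and rose in 4 (median -1.43), beside 37.1% and 35.6% of all genes tested. BAN, set against its other 7 isolates, had a similar mRNA median of -1.47. In footprints 22 fell and 5 rose (median -1.66). Even so, the group took 5.56% and 5.25% of CQC footprint reads, at the upper end of the 2.41% to 5.38% in the others. CIS3, a covalently bound wall protein, was at 6.78 and 5.74 in CQC and from 8.28 to 384 (median 279.7) in the others (-4.44 ± 0.25, edgeR adjusted p = 7.5e-10), and CRH1, which links chitin to glucan, fell, with a log2 difference of -3.59 ± 0.16. SPI1, a wall protein of stationary cells, rose in footprints by 4.46 ± 0.13, to 15269 and 14539.9 from a median of 538, and in mRNA by 2.79 ± 0.16. TIP1, a wall mannoprotein, rose by 3.17 ± 0.10.

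The TIR, DAN and seripauperin genes, wall proteins of cold and oxygen-poor growth, fell in 22 of 30 cases in mRNA and rose in 2, and fell in 29 of 30 in footprints (medians -3.62 and -4.26). CMP, not CQC, had the lowest share of mRNA reads on this group, and CQC lay at 0.022% and 0.020% against 0.005% to 1.02% in the others. After mRNA was thinned to the footprint depth, 3 rather than 22 were called lower. TIR4 was at 397 and 183 in CQC and from 65.1 to 8391 (median 1834) in the other footprint libraries (-2.65 ± 0.29, edgeR adjusted p = 1.2e-08), and without the first CQC replicate the difference was -3.32. The 24 seripauperin genes are so alike that single values are uncertain, and summed they fell, with a log2 difference of -3.88 ± 0.37 in mRNA and -4.22 ± 0.38 in footprints.

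Across genes, the footprint difference followed the mRNA difference. Over the 1362 genes the slope of one on the other was 0.997, where the product of the 2 mRNA replicates in the denominator limits the effect of counting error. With the same denominator and a numerator from 1 replicate number, it was 0.941 and 1.06. That numerator joins mRNA and footprints of the same number, although numbers were not taken to pair samples. The slope from both replicates, each isolate against its other 7, was 0.306 for BAN and 0.750 to 0.850 for the other 6 isolates. With the numerator from 1 replicate number it was 0.208 and 0.425 for BAN and 0.585 to 0.961 for the other 6. Both ends of that range came from AMH, whose higher value lay above the lower one of CQC. The spread of the differences was also widest in CQC, with an SD over genes of 1.60 in mRNA and 1.72 in footprints, beside 0.915 to 1.28 and 0.838 to 1.04. These are descriptions across genes, and the comparisons share libraries.

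**Figure D5:**
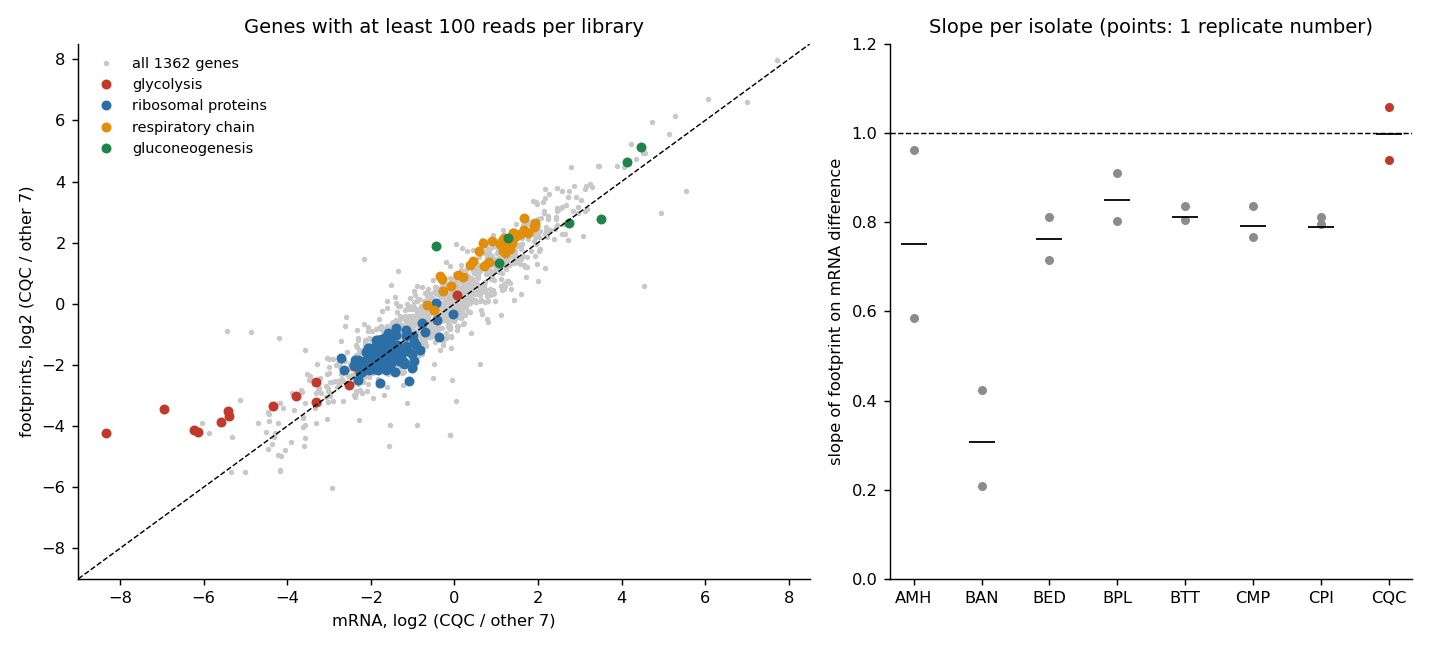
Left, log2 difference in footprints against that in mRNA between CQC and the other 7 isolates for 1362 genes. There, 4 groups are coloured and the dashed line marks equal differences. Right, the slope for each isolate against its other 7 (black tick), with the values whose numerator took 1 replicate number (points). The CQC slope is 0.997, glycolytic genes lie above the dashed line at the lower left and respiratory genes above it on the right.

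Ratio calls were fewer and less stable than those in either assay. Of the 473 genes with a higher ratio, 197 were lower in mRNA, 200 higher and 76 not called, and of the 128 with a lower ratio, 72 were higher in mRNA and 38 lower. Without the first CQC replicate 91 were higher and 30 lower, and without the second 220 and 45. The ratio also moved with gene length: its median was 0.48 in the shortest of 4 equal classes of genes and -0.10 in the longest, and with that trend removed 257 were higher and 109 lower. The part of that trend in the ratio calls of single genes was not tested.

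Beyond glycolysis, the genes with the highest ratios included MBR1, a protein of mitochondrial function. Its mRNA was at 93.7 and 115 in CQC and from 2.37 to 71.0 (median 11.4) in the others and its footprints were 345 and 359 in CQC and from 0 to 82.9 (median 11.4) in the others, a ratio difference of 3.36 ± 0.63 (edgeR adjusted p = 9.8e-04). PAC11, a dynein subunit, fell in mRNA, at 4.01 and 2.96 in CQC and from 5.04 to 31.0 (median 16.3) in the others, and rose in footprints, at 609 and 958 in CQC and from 96.8 to 2816 (median 160.0) in the others. A BAN library had the highest footprint level of PAC11, so the groups overlapped there, and the ratio rose by 3.64 ± 0.52 (edgeR adjusted p = 4.5e-05). CLB6, an S phase cyclin, had 7 and 5 mRNA reads and 14 and 18 footprint reads in CQC, and its ratio of 3.80 ± 0.64 rests on these. It resembles CLB5, another S phase cyclin, so its own value is uncertain, and the 2 summed had a ratio of 2.02 ± 0.41 (edgeR adjusted p = 0.0019).

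At the other end, YCG1, a condensin subunit, had 277 and 219 mRNA reads in CQC and no footprint read in either library, where the others had 8.81 to 41.6 scaled CPM. Against a floor of 3 reads over both CQC libraries, its footprints were at least 4.95-fold lower than the mean of the others. YOX1, a cell cycle repressor, DSE2 and DSE3, of daughter cells, and CLN2, a G1 cyclin, also had no footprint reads, and their bounds against the same mean were at least 9.51-fold, 9.17-fold, 4.78-fold and 8.58-fold lower. SER3, of serine synthesis, was summed with its relative SER33, which gave no call in mRNA (-0.11 ± 0.10), a difference of -2.91 ± 0.23 in footprints and a ratio of -2.78 ± 0.23 (edgeR adjusted p = 1.1e-08). CDC8, thymidylate kinase, rose in mRNA by 2.14 ± 0.10, to 89.9 and 93.3 scaled CPM, while it had 1 and 0 footprint reads, a ratio of counts to the others of 0.104 (95% interval 0.00262 to 0.583, counting error only).

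Some mRNAs were not seen in CQC. Of 6696 open reading frames, 148 had no read in either CQC mRNA library, 21 of them with a gene name, and 23 of the 148, 5 of them named, had a mean of at least 5 scaled CPM in the others. PGU1, a secreted pectinase, had no read in any of the 4 CQC libraries, and its mRNA level in the others ran from 0.932 to 153 (median 5.61), with the highest levels in BED. Against the floor of 3 reads CQC was at least 119-fold lower than the mean of the others, which lies well above their median, and at least 22.2-fold lower than that median. ARN2, a siderophore transporter, had 1 mRNA read in CQC and a median of 462 scaled CPM in the others, a ratio of counts of 2.2e-04 (95% interval 5.6e-06 to 0.00124, counting error only). It had 4 and 2 footprint reads, and BED was also at 0 in mRNA. A missing or diverged gene and a silent one cannot be told apart from counts. No gene reached 1 scaled CPM in CQC mRNA while staying at 3 or fewer reads in every other library.

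Few mating genes were called. Of 26 haploid-specific and mating genes tested in mRNA, 4 rose and 1 fell, and none had both CQC libraries beyond all others. The a-factor gene MFA1 had 1 and 2 mRNA reads and the alpha-factor gene MF(ALPHA)1 8 and 4, while HMRA1 and MATALPHA2, regulators of opposite mating types that have silent copies, were at 61.0 and 69.9 in CQC and from 31.8 to 201 (median 40.7) in the others and 136 and 160.2 in CQC and from 54.5 to 639 (median 97.2) in the others. STE2 and STE3, the pheromone receptors, rose by 1.29 ± 0.30 and 1.03 ± 0.25, to 10.3 and 9.81 and to 15.6 and 11.5 scaled CPM, and STE3 was not called without the first CQC replicate (0.79). HO, the mating type switching nuclease, was not called (0.86 ± 0.56, edgeR adjusted p = 0.18).

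Of 18 sporulation and meiosis genes tested in mRNA, 7 rose, a share near the 35.6% of all genes tested, and none fell. SPS100, a spore wall protein, showed the highest difference of any named gene in mRNA, at 538 and 659 in CQC and from 0.230 to 55.8 (median 1.60) in the other mRNA libraries and 3212 and 2953 in CQC and from 0 to 199.6 (median 6.97) in the other footprint libraries, differences of 7.72 ± 0.24 and 7.98 ± 0.19 (edgeR adjusted p = 2.4e-12 and 7.2e-22). The footprint value was 8.84 without the first BAN replicate. IME1, the inducer of meiosis, rose in mRNA by 2.59 ± 0.53 but stood at 5.86 and 6.11 scaled CPM, below the highest BAN library at 21.9. The other 11 genes of the list were not called.

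The median mRNA difference of a chromosome, less that of all genes, lay between -0.23 (chromosome X) and 0.04 (chromosome XV), and in footprints between -0.34 (chromosome VI) and 0.25 (chromosome IX). For the other 7 isolates, each against the rest, the same values lay between -0.18 and 0.19 in mRNA and between -0.11 and 0.12 in footprints, so the footprint range of CQC was the widest of the 8. In running windows of 21 neighbouring genes, the lowest mRNA median was -1.41 on chromosome I, 129270-171703, from DEP1 to KIN3, where 14 genes fell and 2 rose. The highest was 1.46 on chromosome IX, 241308-272777, from FIS1 to PIG2, where 13 rose and 5 fell. No test was made on windows, which share genes.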

How the data were processed

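Ribosome profiling and RNA-seq libraries of 8 isolates, 2 per isolate and assay, were read from the files of raw read counts per open reading frame that the authors deposited, 1 file per library. Per the submitters' processing notes, CASAVA 1.8, STAR 2.7.0a and the build sacCer3 were used. For the counting tool, annotation, strand setting and reads that match several genes, the choice is not given in the sources used here. Per the labels' protocols, the mRNA kit was stranded and ribosomal RNA was depleted from footprints. The files also give a length per frame in codons, used for the length trend.

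Of 6696 frames, 6008 matched RefSeq R64, 5276 of them with a symbol, and the unmatched ones held 0.379% of reads. edgeR 4.0.16 (R 4.3.3) fitted 1 coefficient per isolate over the 16 libraries of an assay, with TMM scaling, filterByExpr at a minimum count of 10 and a quasi-likelihood test that set CQC, in log2 units, against the average coefficient of the 7 remaining isolates. An isolate near 0 reads therefore weighs heavily in that average. The ratio was the interaction of assay and isolate over all 32 libraries. P-values were adjusted by the Benjamini-Hochberg method over all genes tested, with a threshold of 0.05. The scripts were tested on simulated data.

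The libraries compared and the 49 gene lists were chosen with earlier results of these data known. Named genes were the 10 highest and 10 lowest per layer beyond all other libraries, up to 6 called members per list with the largest differences, genes without CQC reads, up to 8 genes called in opposite directions, the ENO and ENA genes with their neighbours, and uncalled members where their roles needed it. Genes of few reads are given as bounds against 3 reads or as ratios with exact 95% intervals, and both cover counting error only. Alternatives were DESeq2 1.42.0, other scalings, no filter, a replicate block, a length trend, thinned mRNA, each library or isolate left out and, added after the data were seen, summed copies.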

Additional observations from a re-analysis of the deposited data

How the results depend on the processing

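Counts of genes called in mRNA and in footprints moved by less than 1.5 times under every alternative run, except that 1282 mRNAs were lower after thinning to footprint depth, where fewer reads and genes were tested, with 15 cyclins and cell cycle regulators and 3 TIR, DAN and seripauperin genes. The ratio was less stable. After a length trend was removed 257 genes were higher, with 11 respiratory and 5 stress genes, and after thinning 244 were higher and 80 lower. Leaving out 1 library gave 91 to 589 higher and 30 to 153 lower, 3 to 29 respiratory and 2 to 17 stress genes, the lowest without the first CQC replicate. The ratio of HEF3 ran from -1.30 to 0.36 with 1 library left out, changing sign without the first BAN replicate, and the cause was not tested.

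Same-numbered libraries of 2 isolates did not deviate together in every pair (r from -0.66 to 0.46 in mRNA and -0.25 to 0.37 in footprints). The mRNA and footprint libraries of 1 isolate did so in 7 of 8 isolates at an r over 0.1 (0.08 to 0.73, CQC 0.12). The labels do not say that a number marks a shared culture, and not every pair passed, so the numbers were not taken to pair samples. With the replicate block, 2245 mRNAs were higher and 2329 lower, 1387 footprints higher and 1230 lower, and the ratio was higher in 707 genes and lower in 202, with 23 stress genes.

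DESeq2 size factors moved the median of all genes by 0.11 (log2) in footprints and 0.10 in the ratio, and upper quartile scaling moved footprints by -0.15. DESeq2's own Wald test called 589 higher and 127 lower ratios. Footprint depth, 249004 and 275549 reads in CQC and 27621 in the smallest BAN library, limits the ratio of genes of few reads.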

Other observations

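OLE1, the fatty acid desaturase, was at 26816 and 31472 in CQC and from 2268 to 6534 (median 3994) in the other mRNA libraries, in scaled CPM, a rise of 2.95 ± 0.09 (edgeR adjusted p = 2.6e-12). Fatty acid and phospholipid genes as a group took 3.26% and 3.55% of mRNA reads in CQC against 0.676% to 3.10% in the others. Even so, 11 of these 24 genes fell and 8 rose in mRNA, beside 37.1% and 35.6% of all genes tested. Of 28 mevalonate and ergosterol genes 16 fell and 8 rose in mRNA. Their mRNA median was -0.36 in CQC and lower in BAN (-1.67) and CMP (-1.03), each against the rest. Maltose, galactose and sucrose genes took 0.067% and 0.065% of mRNA reads in CQC, below all other libraries, at 0.0996% to 2.003%, while 7 rose and 7 fell of 21, near the 35.6% and 37.1% of all genes tested. Multidrug resistance genes rose in 11 of 21 cases and fell in 4 in mRNA, and in footprints 6 rose and 4 fell, beside 26.2% and 23.3% of all genes tested. Autophagy and vacuolar protease genes took 1.65% and 1.498% of CQC footprint reads against 0.308% to 0.880% elsewhere, and 10 of 19 rose and 4 fell in footprints.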
